A study of Mus musculus with 21 samples.

Results

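The genes described here were the nuclear-encoded structural subunits of mitochondrial complex I. Members were the rows of the liver count matrix whose Ensembl identifier carried a subunit symbol (the Nduf genes of the complex itself, without assembly factors) in the GENCODE M21 annotation of mouse build GRCm38. All 35 listed members were found among the 46078 genes of the matrix, and all 35 passed the filter on low counts that left 14370 genes for testing. Membership went by gene name, with no threshold on a measured value, and the list does not cover every subunit of the complex.

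Livers came from calorie-restricted male mice of at least 9 weeks on a mixed 129 and C57BL/6 background. One genotype, labelled cse and called KO here, lacked Cse (symbol Cth), the gene for cystathionine gamma-lyase, which makes cysteine from cystathionine. The comparison genotype is labelled WT, while the study's methods describe the comparison animals as heterozygous for Cse, so WT is used here as a label. After 3 days of restriction on a control diet (CTR), animals had 2 days on the same diet or on one without cysteine (noCys) or without tryptophan (noTrp), with the other amino acids raised in proportion. The 21 libraries formed 6 groups, with n = 5 for KO noTrp, n = 2 for WT noTrp, n = 3 for KO noCys (replicates 1, 3 and 4), n = 4 for WT noCys, n = 4 for KO CTR and n = 3 for WT CTR.

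Complex I is the entry point of the respiratory chain: it takes electrons from NADH, passes them along a row of iron-sulfur clusters to ubiquinone and pumps protons across the inner mitochondrial membrane. Its peripheral arm, in the matrix, holds the NADH site and the clusters, and its membrane arm holds the proton pumps, whose core subunits are encoded in mitochondrial DNA. Core subunits have bacterial counterparts and do the catalysis, while the many small supernumerary subunits surround them and are needed for assembly or stability. Cysteine supplies the sulfur of iron-sulfur clusters, and liver relies on the complex to oxidise the NADH from fat and amino acid breakdown.

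Depth was 8889951 to 27230852 counts per library, and the members together held 41329 to 147302 counts. Cth stood at 6.34 to 14.99 CPM (counts scaled to one library size) in the KO libraries and 108 to 452 CPM in the WT libraries, so every library matched its genotype label. Levels per library are CPM after scaling by TMM, edgeR's trimmed mean of M values. A pair of libraries was treated as doubtful. In WT CTR replicate 3, annotated ribosomal RNA genes and 3 genes often counted from ribosomal RNA took 8.52% of counts, against 0.125% to 0.439% elsewhere. KO noCys replicate 3 had the largest TMM factor (1.14) and the lowest summed level of the members. Nothing in the labels says more of how the animals relate, so the tests measure the spread between these libraries.

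Subunit transcripts differed widely in level although their proteins sit in one complex. Levels were averaged over the 21 libraries and divided by the length of the annotated transcript chosen for each gene. The highest members were then Ndufa6 (523 CPM per kb), Ndufb9 (496) and Ndufa3 (402), and the lowest were Ndufs1 (33.1), Ndufab1 (20.4) and Ndufb2 (3.35). Ndufb2 and Ndufab1 have long annotated transcripts (4371 and 3479 bases), so their per-length levels depend on which transcript is used. Ndufb2, with 71 to 493 counts per library, was also the least counted member.

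KO noCys livers had the lowest summed level of the subunits. The sum of the 35 members was 4661, 4010 and 4428 CPM in KO noCys and 4851, 5689, 5581 and 5161 CPM in WT noCys, so the groups did not overlap. Ordered by mean (± SD), it was 5877 ± 650 CPM for KO CTR (n = 4), 5389 ± 316 for WT CTR (n = 3), 5320 ± 387 for WT noCys (n = 4), 5272 ± 197 for WT noTrp (n = 2), 5205 ± 547 for KO noTrp (n = 5) and 4366 ± 330 for KO noCys (n = 3), and apart from KO noCys neighbours in this order differed by less than their spread. For 29 of the 35 members the group with the lowest mean was KO noCys, and for 27 the group with the highest mean was KO CTR. As shares of raw library totals the difference between the noCys groups was smaller, with 0.472% of counts on average in KO noCys and 0.497% in WT noCys, and the libraries of the groups overlapped. In bulk liver, fewer cells of a type and less RNA per cell cannot be told apart.

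**Figure D1:**
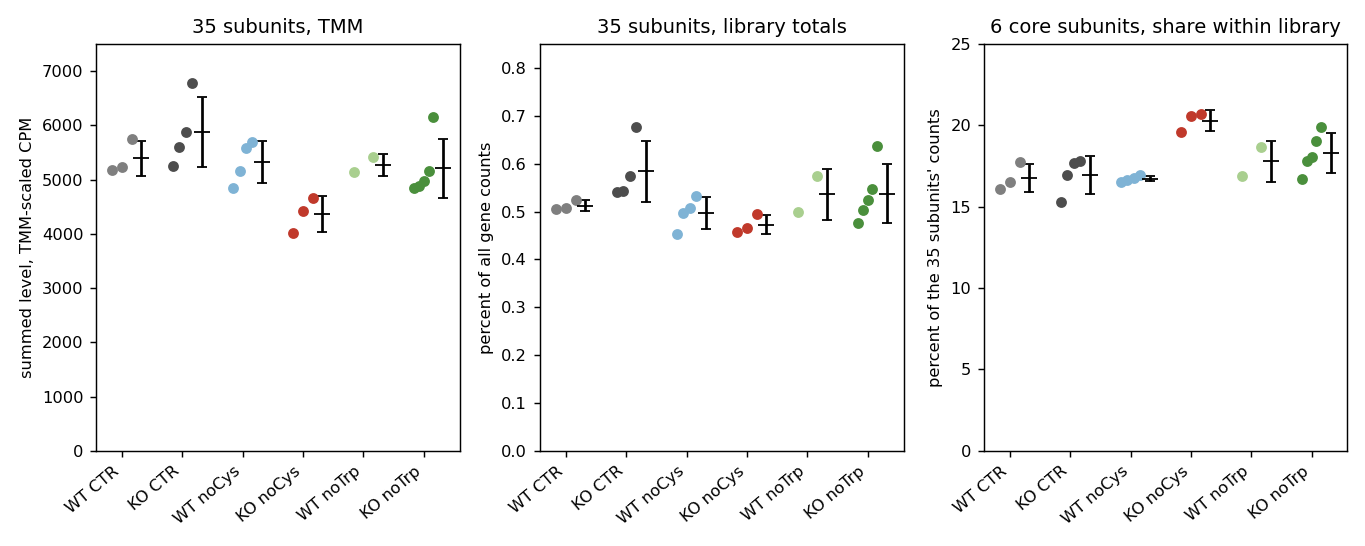
Each point is 1 library, with the mean and SD beside each group. The left panel gives the summed TMM-scaled CPM of the 35 subunits, the middle panel their percent of all gene counts, and the right panel the percent of the 35 subunits' counts that came from the 6 core subunits. KO noCys is lowest in the left panel (4010 to 4661 CPM against 4851 to 5689 in WT noCys), overlaps WT noCys in the middle panel, and has a core share of 19.6% to 20.7% in the right panel.

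The comparison of KO with WT livers without dietary cysteine asks what happens to the complex when cysteine can be neither made nor eaten. In it, 11 of the 35 members were called lower and the others were not called (edgeR quasi-likelihood test, Benjamini-Hochberg adjusted over 14370 genes, threshold 0.05). Of all genes tested, 28.2% were called in this comparison and 13.4% were called lower, which is the background for that count. The members' median log2 fold change was -0.26 and that of all genes was -0.02. Every KO noCys library lay below every WT noCys library for 17 members, and above for 1 (Ndufab1, log2 fold change 0.20 ± 0.11 SE, adjusted p not past the threshold), where 18.1% and 19.4% of all genes did so.

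The 11 called members were all supernumerary subunits, and they came from each part of the complex. In the peripheral arm 3 of 15 were called, namely Ndufv3 and Ndufs6 of the NADH-binding end and Ndufa9, a nucleotide-binding subunit beside the ubiquinone site. In the proximal membrane arm 4 of 9 were called (Ndufa1, Ndufa3, Ndufc1 and Ndufs5), and in the distal membrane arm 4 of 10 (Ndufb2, Ndufb5, Ndufb8 and Ndufb11). Median log2 fold changes were -0.25, -0.32 and -0.31 in the 3 parts. Of the 6 core subunits listed none was called, and 1 had an unadjusted p under 0.05 (DESeq2 and limma-voom also called none). The 29 supernumerary members had a median of -0.32 and the 6 core members a median of 0.08. The difference between these classes was not tested.

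Ndufa1, a small subunit with a single membrane span that the complex needs for its assembly, fell most. Its level was 84.02, 63.2 and 77.00 CPM in KO noCys and 143, 184, 143 and 159 CPM in WT noCys. Every KO noCys library was far below the lowest WT noCys library. The log2 fold change was -1.07 ± 0.13 (SE; adjusted p = 1.046e-05), which leaves 47.5% of the WT level. In the other groups it stood at 159, 128, 128 and 137 in KO CTR, 139.6, 144 and 141 in WT CTR, 108, 149, 114, 102 and 119 in KO noTrp and 133 and 144 in WT noTrp CPM, all above every KO noCys library.

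Ndufa3, another small subunit of the proximal membrane arm, was at 121, 108 and 130.4 CPM in KO noCys and 206, 266, 268 and 218 CPM in WT noCys. Its lowest WT noCys library was still well above its highest KO noCys library, and the log2 fold change was -0.999 ± 0.159 (adjusted p = 0.000131). Elsewhere it stood at 325, 215, 244 and 213 in KO CTR, 217, 209.7 and 265 in WT CTR, 171, 232, 195, 166 and 183 in KO noTrp and 171 and 220.2 in WT noTrp CPM. Every one of these 14 libraries was above KO noCys.

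Ndufb2, a subunit of the distal membrane arm, was counted at 8.01, 6.96 and 13.9 CPM in KO noCys and 17.2, 25.8, 20.2 and 16.02 CPM in WT noCys. The groups did not overlap, but the KO noCys libraries spread by more than the gap between them, and the log2 fold change of -1.03 ± 0.24 (adjusted p = 0.00307) had the widest error of the called members. The other groups held 21.5, 17.6, 16.1 and 14.9 in KO CTR, 11.8, 10.98 and 18.2 in WT CTR, 10.9, 15.1, 12.5, 12.1 and 10.7 in KO noTrp and 11.1 and 16.3 in WT noTrp CPM, and several of those libraries lay below the highest KO noCys library. Some exonic bases of Ndufb2 are shared with Braf and other annotated genes.

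Ndufv3, a small subunit at the NADH-oxidising tip, was at 96.6, 98.3 and 109.6 CPM in KO noCys and 149.9, 162, 186 and 159.8 CPM in WT noCys, again without overlap. Its log2 fold change was -0.69 ± 0.12 (adjusted p = 0.000407). The remaining groups gave 209, 144, 185 and 184 in KO CTR, 168, 159.8 and 183 in WT CTR, 119.7, 148, 126, 124 and 132 in KO noTrp and 115 and 154 in WT noTrp CPM, so the means of the noTrp groups lay between those of the control groups and KO noCys.

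Ndufb8, a distal membrane arm subunit whose protein is often used as a marker of assembled complex I, was at 80.1, 63.6 and 77.4 CPM in KO noCys and 98.4, 129, 108 and 109.6 CPM in WT noCys. The KO noCys libraries were all lower, with a log2 fold change of -0.60 ± 0.12 (adjusted p = 0.00116). In the other groups it was 129, 104, 109 and 96.5 in KO CTR, 91.4, 97.2 and 96.6 in WT CTR, 90.7, 94.4, 89.8, 82.2 and 83.9 in KO noTrp and 109.7 and 81.3 in WT noTrp CPM, and 1 WT noTrp library and the lower KO noTrp libraries came close to the KO noCys range. Ndufb5 fell by 0.60 on the log2 scale, about as much as Ndufb8, and the other called members fell by less: Ndufs6 by 0.55, Ndufc1 by 0.41, Ndufa9 by 0.34, Ndufb11 by 0.33 and Ndufs5 by 0.32 on the log2 scale.

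The core subunits carry the NADH site, the flavin and the iron-sulfur clusters, and none of the 6 listed was called. Ndufv1, which binds NADH and its flavin, was at 247, 212 and 211 CPM in KO noCys and 203, 220.3, 201 and 214 CPM in WT noCys. The groups overlapped and the log2 fold change was 0.09 ± 0.11. It was 203, 238, 225 and 223 in KO CTR, 183, 212 and 187 in WT CTR, 245, 229.8, 227, 240.5 and 212 in KO noTrp and 283 and 197 in WT noTrp CPM in the rest, a range that takes in the noCys groups.

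Ndufs1, the largest iron-sulfur subunit, was at 105, 82.2 and 85.5 CPM in KO noCys and 83.1, 84.7, 79.6 and 77.7 CPM in WT noCys. It too overlapped, with its highest value in KO noCys and a log2 fold change of 0.16 ± 0.10. Elsewhere it read 79.5, 98.6, 103 and 89.3 in KO CTR, 80.1, 88.3 and 80.2 in WT CTR, 97.2, 85.2, 91.1, 97.8 and 91.6 in KO noTrp and 90.2 and 81.3 in WT noTrp CPM. Ndufs3, a core subunit of the ubiquinone module, was at 134, 109.8 and 113 CPM in KO noCys and 101, 118, 108 and 116 CPM in WT noCys, and here as well the groups overlapped (log2 fold change 0.10 ± 0.09). It was 132, 123, 141 and 129 in KO CTR, 120.3, 126 and 120.0 in WT CTR, 122, 137, 122, 131 and 131 in KO noTrp and 125 and 115 in WT noTrp CPM in the remaining libraries.

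Ndufs7, which carries the last iron-sulfur cluster before ubiquinone, was at 199, 189 and 204 CPM in KO noCys and 166, 201, 196 and 188 CPM in WT noCys, with 2 KO noCys libraries inside the WT noCys range and a log2 fold change of 0.07 ± 0.12. The other groups gave 241, 168, 210.4 and 183 in KO CTR, 198, 203 and 202 in WT CTR, 183, 236, 188, 180.4 and 189 in KO noTrp and 187 and 240.1 in WT noTrp CPM. Ndufv2, an iron-sulfur subunit beside Ndufv1, and Ndufs8, an iron-sulfur subunit next to Ndufs7, were the core members with negative values.

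Ndufv2 was at 177, 143 and 162 CPM in KO noCys and 166, 204, 213 and 179 CPM in WT noCys. The ranges overlapped, and the log2 fold change of -0.25 ± 0.12 was not called (adjusted p = 0.121). Its other libraries gave 249, 198, 236 and 208 in KO CTR, 173, 185 and 212 in WT CTR, 186, 231, 196, 206 and 181 in KO noTrp and 181 and 180.2 in WT noTrp CPM, and most of those in the control groups lay above every KO noCys library. Ndufs8 was at 97.8, 94.7 and 90.2 CPM in KO noCys and 94.8, 113, 132 and 101 CPM in WT noCys, overlapping and not called (log2 fold change -0.22 ± 0.11). It was 133, 103, 133 and 117 in KO CTR, 111, 105 and 124 in WT CTR, 98.4, 109.7, 94.4, 110.0 and 93.2 in KO noTrp and 92.7 and 101 in WT noTrp CPM in the others.

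**Figure D2:**
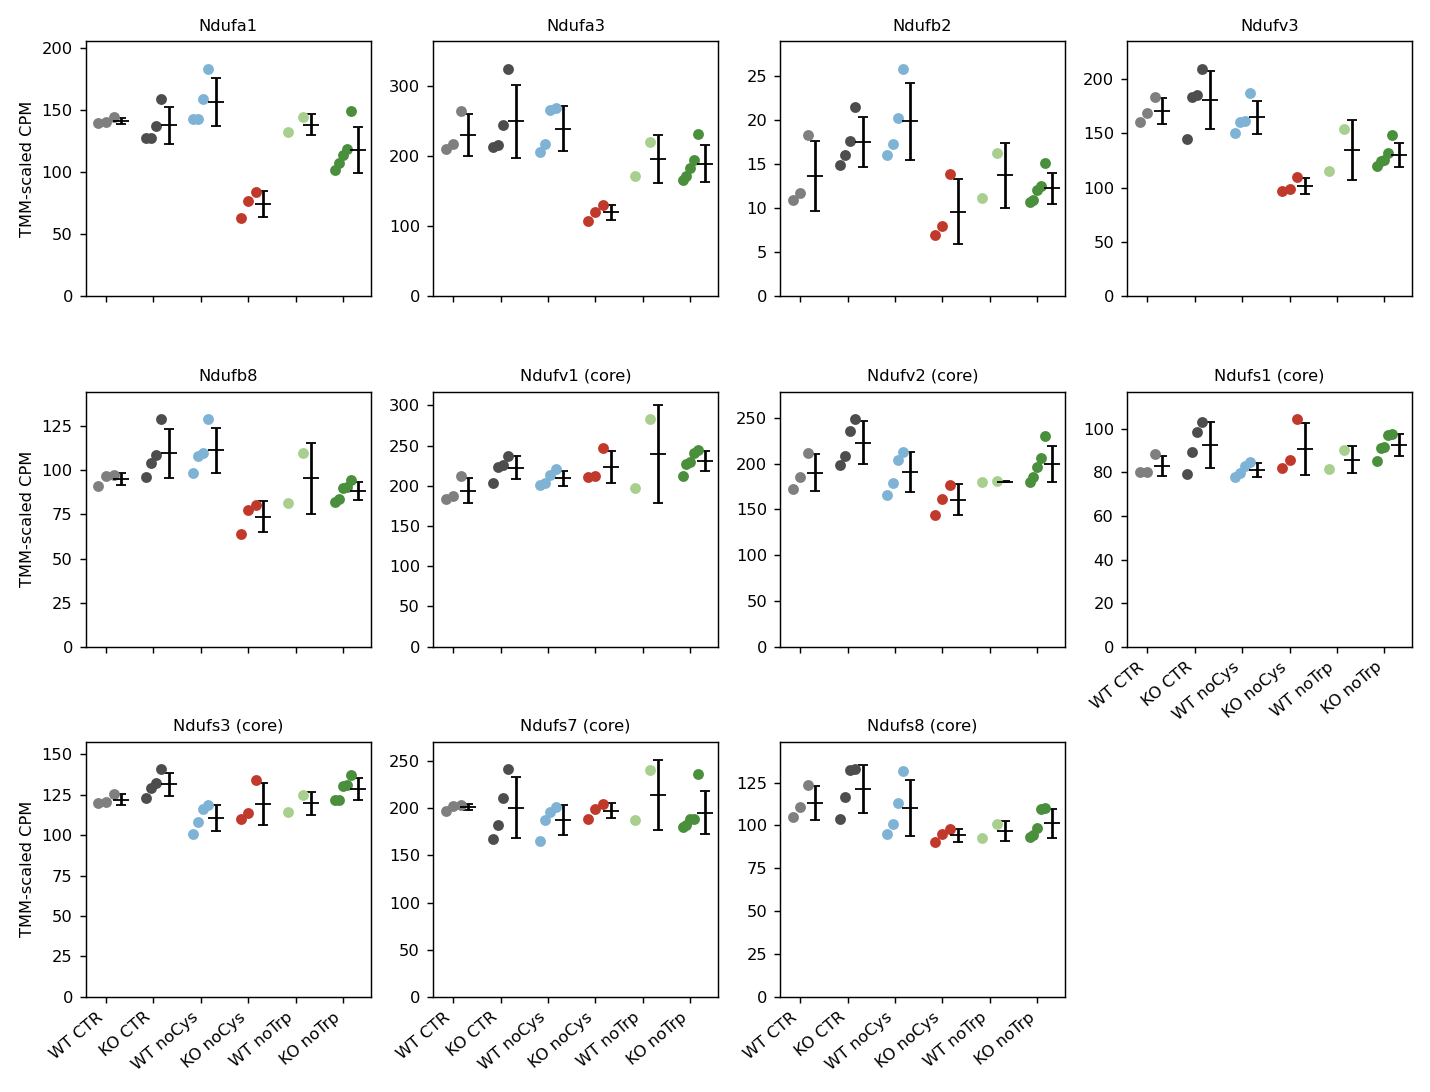
TMM-scaled CPM of 5 supernumerary and 6 core subunits, 1 point per library in the 6 groups, with the mean and SD beside each group and every axis starting at 0. Ndufa1, Ndufa3, Ndufb2, Ndufv3 and Ndufb8 have every KO noCys library below every WT noCys library, while in each core panel these groups overlap.

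A share within the members needs no scaling between libraries. The 6 core subunits gave 20.6%, 20.7% and 19.6% of the members' counts in KO noCys and 16.8%, 16.5%, 16.6% and 16.9% in WT noCys. These groups did not overlap, and the share was 15.3% to 17.8% in KO CTR, 16.1% to 17.7% in WT CTR, 16.9% to 18.7% in WT noTrp and 16.7% to 19.9% in KO noTrp. The share was thus higher in KO noCys than in every control and WT library, while the highest KO noTrp library was within its range. The core subunits summed to 885 ± 66.2 CPM (SD) over the 3 KO noCys libraries and 889.6 ± 58.4 over the 4 of WT noCys, and the supernumerary subunits to 3481 ± 271 and 4431 ± 329 CPM.

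How the libraries were scaled moved the direction of some members, none of them among the 11. TMM and RLE, the DESeq2-style factors, each called 11 members, all lower, and each called 13.4% of all genes lower. Upper quartile scaling called 16, all lower, where 14.9% of all genes were called lower and their median was -0.05. With library totals alone 7 were called lower and 4 higher, where 6.84% and 27.4% of all genes were, the latter members being Ndufs1, Ndufs3, Ndufv1 and Ndufab1 (log2 fold changes 0.36, 0.31, 0.30 and 0.42). That scaling moved the median of all genes to 0.20, and the members' median to -0.06. Relative to the median of all genes the members stood at -0.25 under TMM, -0.25 under RLE, -0.25 under upper quartile and -0.26 under library totals. A change of scaling shifts members and other genes alike, so this distance hardly depends on it and is no test of it. The falls of Ndufa1, Ndufa3, Ndufb2, Ndufb5, Ndufb8, Ndufs6 and Ndufv3 were called under all 4 scalings, under each of the other tests and fits tried, and without any single library of the pair of groups. Leaving out KO noCys replicate 3 left these 7 called and no other, where 7.6% of all genes were called lower. Correcting for transcript length left 10, where 12.3% of all genes were called lower.

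**Figure D3:**
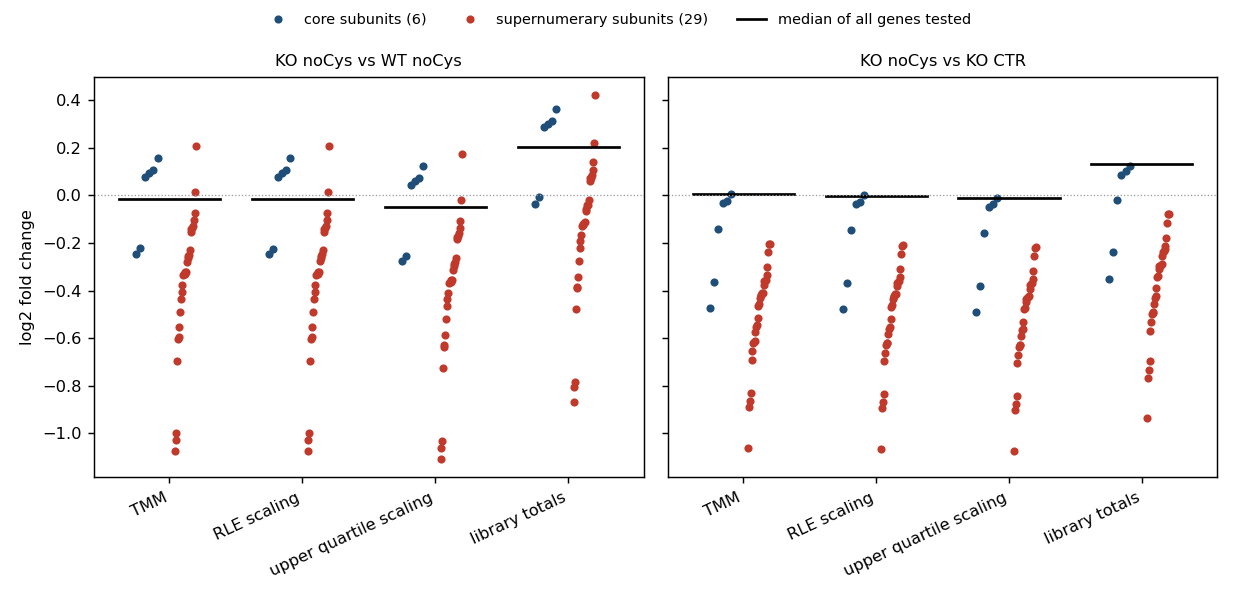
Log2 fold changes of the 6 core subunits (blue) and 29 supernumerary subunits (red) under 4 library scalings, for KO noCys against WT noCys (left) and against KO CTR (right), 1 point per gene, with the median of all genes tested as a black line. Library totals shift all genes upward, to a median of 0.20 on the left, where 3 core subunits are then called higher. Members and other genes shift alike, so the members' distance from that median hardly depends on the scaling.

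Removing cysteine from KO animals was the comparison with the most members called. KO noCys against KO CTR gave 26 members called lower and no other call, where 20.2% of all genes were called and 9.59% were called lower. The members' median log2 fold change was -0.42 and that of all genes 0.00. All 9 members of the proximal membrane arm were called, 10 of the 15 in the peripheral arm and 7 of the 10 in the distal membrane arm. Ndufa3 fell most, from a mean of 249 CPM to 119.7 CPM, without overlap (log2 fold change -1.06 ± 0.16, adjusted p = 0.000124). Every KO noCys library lay below every KO CTR library for 25 members, against 13.2% of all genes. The 9 members not called were the core subunits Ndufv1, Ndufs1, Ndufs3 and Ndufs7 and the supernumerary Ndufa7, Ndufb3, Ndufb6, Ndufb7 and Ndufab1, and the core subunits called were Ndufv2 (-0.47 ± 0.12) and Ndufs8 (-0.36 ± 0.11). Neither was called without KO noCys replicate 3 (-0.40 and -0.37), and Ndufs8 was not called with library totals (-0.24), with the length offset (-0.30) or without KO CTR replicate 1 (-0.32), KO CTR replicate 3 (-0.32) or KO noCys replicate 4 (-0.33).

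All 11 members called between the noCys groups were among those 26. The 2 comparisons share the KO noCys libraries, so that overlap is no separate evidence. Without KO CTR replicate 1, the library with the highest summed level (6775 CPM), the count was 16 (7.6% of all genes called lower). It was 16 without KO noCys replicate 4 (6.42% of all genes) and 10 without KO noCys replicate 3 (4.61%). With library totals it was 16 (5.9%), and DESeq2 and limma-voom each called 27 (10.8% and 13.1% of all genes), all lower. Among the marker lists, 3 of 5 erythroid markers tested, 2 of 8 hepatocyte markers, 1 of 3 adipocyte markers tested and 1 marker each of the endothelial, stellate and cholangiocyte lists were called lower in this comparison, and none was called higher. The adipocyte list summed to 282 to 681 CPM of library totals in KO noCys and 1288 to 2079 in KO CTR, without overlap, but nearly all of that sum was Car3, a carbonic anhydrase that hepatocytes also express, while Adipoq, Plin1, Lep and Ucp1 were at or near 0 in all libraries. The erythroid and hepatocyte sums overlapped. Protein-coding genes other than the members with transcripts under 1000 bases took 9.83% to 10.6% of counts in KO noCys and 10.7% to 13.1% in KO CTR. Of the 20 members with transcripts that short 15 were called, and of the 15 longer ones 11. The part of these measures in the falls was not tested.

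In WT livers the same diet called no member. WT noCys against WT CTR gave 0 of 35 calls where 0.661% of all genes were called, 3 members had an unadjusted p under 0.05 in edgeR, and DESeq2 and limma-voom called 0. Median log2 fold changes were -0.04 for the members and -0.01 for all genes. Ndufa1 was 0.15 and Ndufa3 0.05 there on the log2 scale, both uncalled.

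The effect of cysteine removal was then compared between KO and WT livers, and this test of the difference called 10 members, each with a lower value in KO, where 7.44% of all genes were called and 3.88% in that direction. They were the members called between the noCys groups other than Ndufb11. Ndufb2 had the largest difference of log2 fold changes (-1.40 ± 0.33), followed by Ndufa3 (-1.11 ± 0.22), Ndufa1 (-1.04 ± 0.18) and Ndufb8 (-0.80 ± 0.17). The smallest adjusted p was that of Ndufa1 (0.00241). Without KO noCys replicate 3 the count was 4 (Ndufa1, Ndufa3, Ndufb8 and Ndufv3), where 1.62% of all genes were called lower. With library totals it was 6, all lower (2.25% of all genes). DESeq2 called 11 (5.2% of all genes) and limma-voom 17 (7.85%), all lower. Cell type markers were read in this test as well, and 5 of 5 erythroid (median -1.29, 2 called lower), 8 of 8 hepatocyte (-0.31, 1 called), 7 of 7 Kupffer (-0.65, 0 called), 7 of 7 endothelial (-0.35, 0 called), 3 of 3 adipocyte (-0.94, 0 called) and 5 of 6 cholangiocyte markers (-0.70, 1 called) had negative values. Stellate markers were negative in 3 of 7 (0.09, 0 called) and leukocyte markers in 3 of 4 (-0.48, 0 called). The muscle and pancreas lists, with 1 marker tested in each, were positive (0.13 and 0.80). The part of the markers in the members' differences was not tested.

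**Figure D4:**
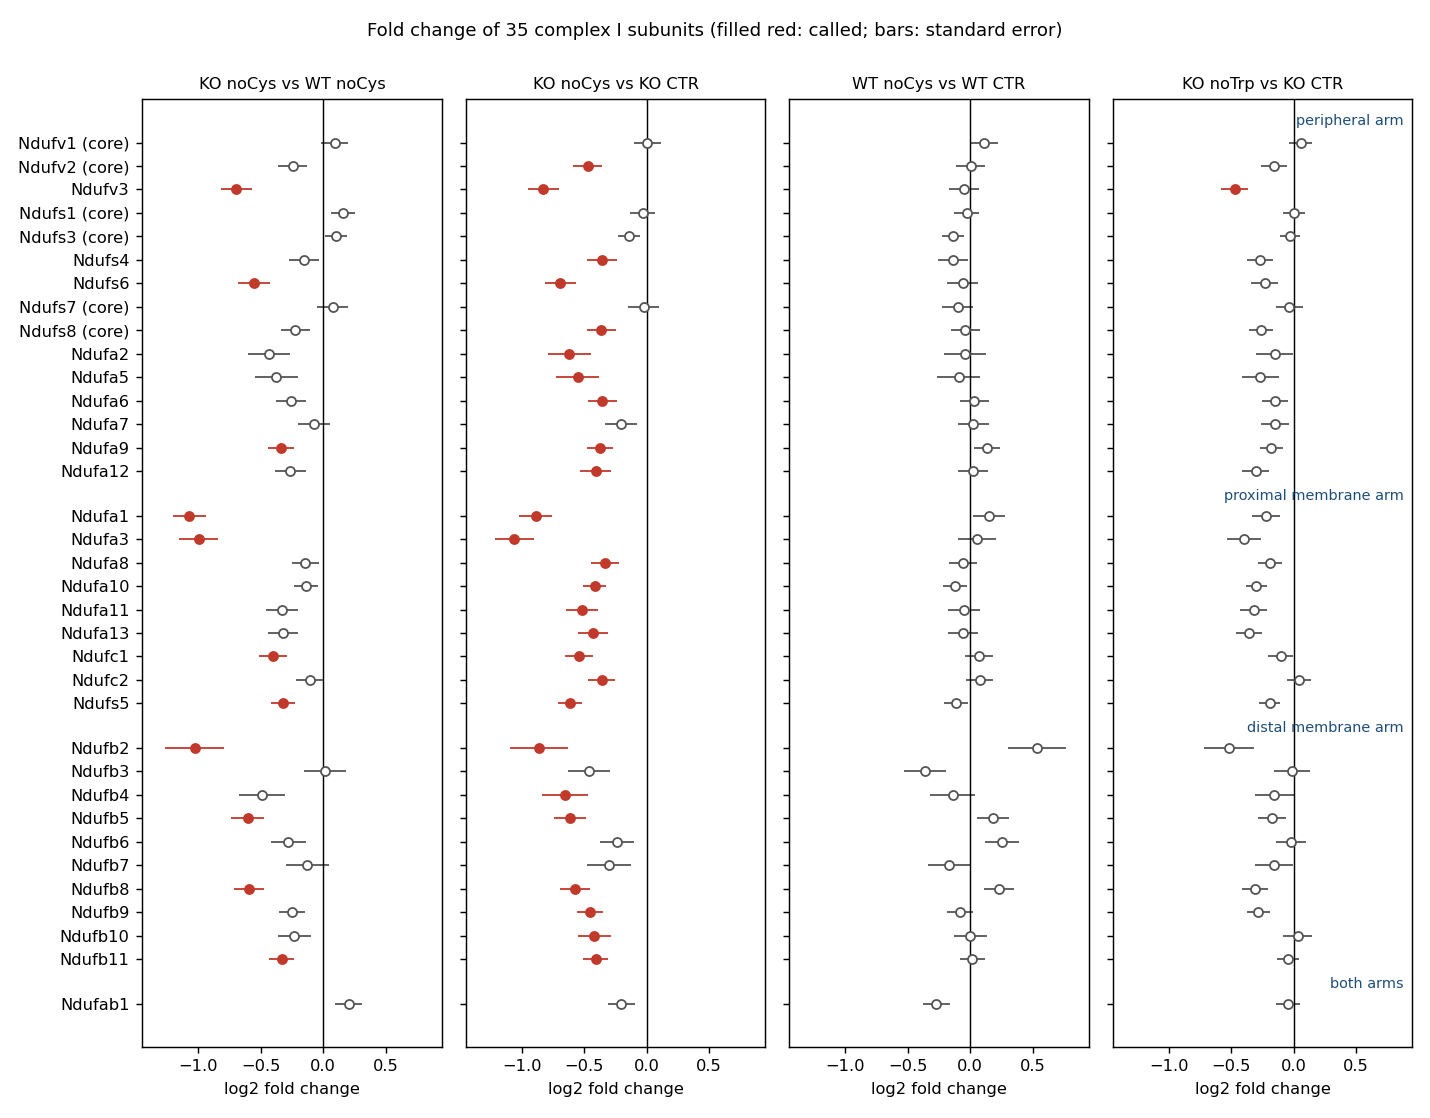
Log2 fold change with its standard error for each of the 35 subunits, ordered by part of the complex, in 4 comparisons, with called members in filled red. Under TMM the falls appear with KO noCys (11 and 26 called), none is called for cysteine removal in WT, and 1 (Ndufv3) for tryptophan removal in KO. Under library totals 4 open points of the left panel, Ndufs1, Ndufs3, Ndufv1 and Ndufab1, would be called higher.

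Tryptophan removal served as the comparison for loss of an amino acid other than cysteine. KO noTrp against KO CTR called 1 member, Ndufv3 (log2 fold change -0.47 ± 0.11, adjusted p = 0.026), where 1.87% of all genes were called and 1.09% were called lower. That call was lost with library totals, where 0.765% of all genes were called lower. It was also lost on leaving out any of KO CTR replicates 1, 3 and 4 or KO noTrp replicates 1, 3 and 4. In each of those fits 0 members were called, with 0.525% to 0.908% of all genes called lower. DESeq2 called 4 members (2.22% of all genes called lower) and limma-voom 5 (2.28%). Fold changes were negative for 32 of 35 members, the median was -0.18 against 0.00 for all genes, and 13 had an unadjusted p under 0.05. In this comparison erythroid markers were negative in 5 of 5 (median -0.77, 0 called). Stellate markers were negative in 7 of 7 (-0.37, 1 called lower). Other lists went the other way, with negative values in 1 of 7 Kupffer (median 0.47, 1 called higher), 0 of 7 endothelial (0.45) and 0 of 6 cholangiocyte markers (0.13). Of 8 hepatocyte markers 5 were negative (-0.04, 1 called lower). The part of the markers was not tested. WT noTrp against WT CTR called 0 members in edgeR, DESeq2 and limma-voom (4 with an unadjusted p under 0.05, 3.19% of all genes called), though 1 was called higher without WT noTrp replicate 2, a fit that leaves a single WT noTrp library, assumed to vary like the other groups.

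The KO diets were also set against each other. KO noCys against KO noTrp called 9 members, all lower, where 13.9% of all genes were called and 6.75% were called lower. These were Ndufa1, Ndufa3, Ndufb5, Ndufb10, Ndufb11, Ndufc1, Ndufc2, Ndufs5 and Ndufs6, with Ndufa1 falling most (-0.67 ± 0.13, adjusted p = 0.00183). Without KO noCys replicate 3 only Ndufa1 was called, where 1.89% of all genes were called lower. DESeq2 called 14 (8.52% of all genes called lower) and limma-voom 15 (10.2%). The median of the members was -0.22 and that of all genes 0.01. Here 7 of 7 endothelial (median -0.61, 3 called lower), 7 of 7 Kupffer (-0.67, 1 called), 6 of 6 cholangiocyte (-0.71, 1 called) and 3 of 3 adipocyte list markers (-0.78, 2 called) had negative log2 fold changes, and 1 of 8 hepatocyte markers was called lower. Stellate markers were negative in 1 of 7 (0.08, 0 called) and erythroid markers in 4 of 5 (-0.24, 0 called). Hepatocyte markers were negative in 4 of 8 (-0.09) and leukocyte markers in 2 of 4 (-0.20, 0 called). The part of the markers in the falls was not tested.

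Genotype alone called no member on the other diets. KO CTR against WT CTR called 0 of 35 by edgeR, DESeq2 and limma-voom, with 1 unadjusted p under 0.05 and 0.32% of all genes called. Its fold changes were positive for 33 members, with a median of 0.14 against 0.00 for all genes. KO noTrp against WT noTrp called 0 by the same 3 tools, with 0 unadjusted p under 0.05, 0.195% of all genes called and a median of -0.01. The genotype effect differed between the noCys and noTrp diets for 3 members, Ndufa3 (-0.95 ± 0.23), Ndufa1 (-0.85 ± 0.19) and Ndufv3 (-0.65 ± 0.18), where 6.35% of all genes were called and 3.03% in that direction. That count was 1 without KO noCys replicate 3 (1.42% of all genes called lower) and 1 with library totals (1.62%). WT noTrp had 2 libraries. All 7 Kupffer (median -0.50) and all 6 cholangiocyte markers (-0.33) had negative values in this test with 0 called, and 1 of 8 hepatocyte and 1 of 3 adipocyte list markers were called lower. Erythroid markers were negative in 3 of 5 (-0.25, 0 called) and endothelial markers in 5 of 7 (-0.24, 0 called). The muscle and pancreas lists, with 1 marker tested in each, were positive (0.37 and 0.39). The part of the markers in these differences was not tested.

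Genes of the other respiratory complexes and of mitochondrial upkeep were read in the same comparison, KO noCys against WT noCys, where 13.4% of all genes were called lower, 14.8% were called higher and the median log2 fold change was -0.02. Of 39 nuclear genes of complexes II to V, 19 were called lower and 1 higher, with a median log2 fold change of -0.36. The largest falls were Atp5k (-1.13 ± 0.17) and Atp5e (-0.80 ± 0.17) of ATP synthase and Uqcr11 (-0.91 ± 0.17) of complex III. Of the 6 mitochondrially encoded complex I subunits tested, mt-Nd3 (-1.25 ± 0.39) and mt-Nd2 (-0.81 ± 0.24) were called, both lower. Mitochondrial transcripts took 3.77% to 5.51% of counts in KO noCys and 4.54% to 7.67% in WT noCys.

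Of 16 complex I assembly factors tested, 4 were called higher and none lower, with a list median of 0.13, and the share called was close to the 28.2% of all genes. The highest were Tmem186 (0.68 ± 0.18), Nubpl (0.68 ± 0.24), which delivers iron-sulfur clusters to the complex, and Ndufaf3 (0.51 ± 0.12). Of 14 genes for iron-sulfur cluster assembly 4 were called higher and none lower, with a median of 0.19, again a share close to that of all genes. They included the chaperone Hspa9 (1.14 ± 0.12), its partner Hscb (0.51 ± 0.15) and Fdx1l (0.39 ± 0.13), a ferredoxin. Of 16 general mitochondrial genes (import, chaperones, carriers, matrix enzymes) 10 were called, all higher, with a median of 0.35, led by the import pore gene Tomm40 (0.70 ± 0.11), the chaperonin Hspd1 (0.66 ± 0.09) and Timm23 (0.61 ± 0.20). With library totals, 12 genes of complexes II to V were called lower and 4 higher, and 9 assembly factors, 8 iron-sulfur assembly genes and 12 general mitochondrial genes were called higher, where 27.4% of all genes were called higher, 6.84% were called lower and the median of all genes was 0.20. The difference between these lists and the subunits was not tested.

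Among 10 regulators of nuclear respiratory genes 1 was called under TMM, Gabpb1, a subunit of the factor GABP (0.52 ± 0.16, adjusted p = 0.0173), and 4 were called, all higher, with library totals. The coactivators Ppargc1a and Ppargc1b stood at -0.46 ± 0.53 and -0.77 ± 0.39, and Pprc1 at 0.54 ± 0.26. Nrf1 was 0.16 ± 0.16, Gabpa -0.01 ± 0.11, Esrra -0.04 ± 0.14, Yy1 0.09 ± 0.09, Tfam 0.15 ± 0.10 and Ppara -0.38 ± 0.17, all of them log2 fold changes under TMM, where none was called.

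**Figure D5:**
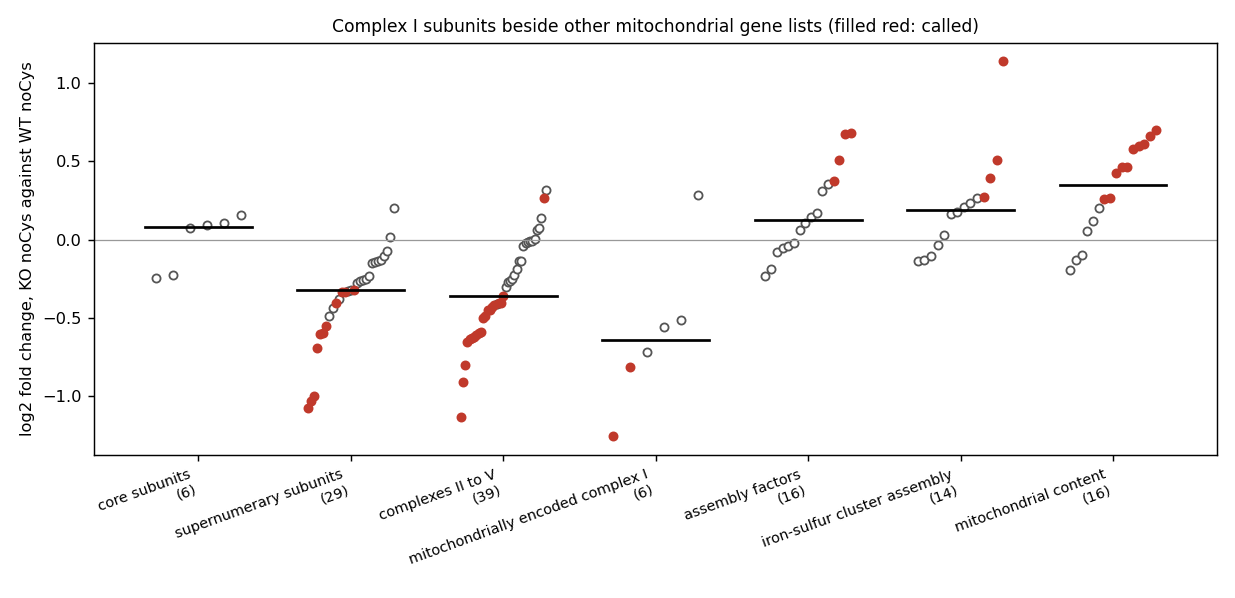
Log2 fold changes between the noCys groups (KO against WT, TMM) for the 6 core and 29 supernumerary complex I subunits and for 5 other lists, 1 point per gene tested, with called genes in filled red and the list's median as a black line. Supernumerary subunits (median -0.32) and complexes II to V (-0.36) lie mostly below 0, core subunits around it (0.08), and the called genes of the 3 lists at the right are all above it.

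Promoters of respiratory genes are known for binding sites of NRF1 and YY1, so the start regions of the members were searched for them. RefSeq windows of 300 bases (250 before and 50 after the start site, build GRCm38.p6) were given for 32 members. The NRF1 pattern (GCGC, any base, then TGCGC), on either strand, was in the windows of 7 of the 32 (21.9%) and of 5.19% of 27025 genes, and these 7 genes are shown because they share it, with the match in capitals and 10 bases on each side.
Ndufa11 (chr17:56717692-56717721, plus strand): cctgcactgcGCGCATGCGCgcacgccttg
Ndufa5 (chr6:24527697-24527726, minus strand): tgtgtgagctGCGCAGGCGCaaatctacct
Ndufa6 (chr15:82354249-82354278, minus strand): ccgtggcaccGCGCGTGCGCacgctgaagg
Ndufa8 (chr2:36049349-36049378, minus strand): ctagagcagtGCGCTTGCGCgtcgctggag
Ndufb4 (chr16:37654371-37654400, minus strand): cctcatatccGCGCAGGCGCagatgtgcgc
Ndufb4 (chr16:37654428-37654457, minus strand): ccttgtgcgcGCGCAGGCGCacttcctgag
Ndufb4 (chr16:37654540-37654569, minus strand): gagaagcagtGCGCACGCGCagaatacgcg
Ndufs5 (chr4:123718265-123718294, minus strand): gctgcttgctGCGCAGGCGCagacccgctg
Ndufs6 (chr13:73328479-73328508, minus strand): cgactgctgtGCGCCTGCGCcggcacttgg

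The YY1 pattern AAGATGGCG, searched on both strands, was in 5 of the 32 (15.6%) and in 1.64% of all genes. All 5 matches lay just after the start site and read in the direction of the transcript, where the letters include an ATG.
Ndufa9 (chr6:126849097-126849125, minus strand): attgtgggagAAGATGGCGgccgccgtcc
Ndufc1 (chr3:51408915-51408943, minus strand): cctgcggaacAAGATGGCGccgtccgtag
Ndufs4 (chr13:114388045-114388069, minus strand): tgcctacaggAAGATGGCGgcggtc
Ndufs6 (chr13:73328433-73328459, minus strand): ggtcaccggcAAGATGGCGgcggtgct
Ndufs7 (chr10:80249463-80249491, plus strand): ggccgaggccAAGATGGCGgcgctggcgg

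Matches were found in members called between the noCys groups and in others. All 11 called members had a window, and 2 of them (Ndufs5 and Ndufs6) held the NRF1 pattern and 3 (Ndufa9, Ndufc1 and Ndufs6) the YY1 pattern, while of the 21 others with a window 5 and 2 did. The core subunit Ndufs7 was the remaining uncalled member with YY1, beside Ndufs4. The ETS pattern CCGGAAGT was in 1 of 32 members (Ndufs3) and 4.31% of all genes, and neither the ERR pattern TCAAGGTCA (0.47% of all genes) nor TGATGNAA, the ATF4 pattern (4.51%), was found in a member, both strands searched. The NRF2 pattern TGACNNNGC was in 7 of 32 members and 14% of all genes. Ndufa1, the member that fell most, held this last one, on the opposite strand, and its match is shown for that reason.
Ndufa1 (chrX:37191325-37191353, minus strand): ggaccgcttcGCGTCGTCAcactccgtgg

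Other measures moved along with the noCys comparison. The summed level of 8 hepatocyte markers (CPM of library totals, as for all marker sums), of which 2 were called lower, was 59443 to 82479 CPM in KO noCys and 98538 to 106545 in WT noCys, with all 8 detected. Cholangiocyte markers (2 of 6 lower) summed to 17.2 to 20.8 and 32.2 to 54.4 CPM and erythroid markers (3 of 5 tested lower) to 138 to 176.0 and 176.3 to 351 CPM, with none of either list at 0. The adipocyte list (2 of 3 tested lower) summed to 282 to 681 and 591 to 777 CPM, nearly all of it Car3, with 4 of 7 listed at 0 throughout KO noCys. Sums of the Kupffer, endothelial, leukocyte, stellate, muscle and pancreas lists overlapped between the groups. Under TMM, however, every tested marker of 7 lists had a negative log2 fold change, namely 7 of 7 for Kupffer cells (median -0.60, 1 called), 7 of 7 for endothelial cells (-0.47, 2 called), 7 of 7 for stellate cells (-0.35, 0 called), 4 of 4 for leukocytes (-0.72, 0 called), 6 of 6 for cholangiocytes (-0.86), 3 of 3 for the adipocyte list (-0.81) and 5 of 5 for erythroid cells (-1.02), medians further below 0 than the members' -0.26. Protein-coding genes with transcripts under 1000 bases, other than the members, took 9.83% to 10.6% of counts in KO noCys and 10.9% to 11.8% in WT noCys, and 20 of the 35 members have transcripts that short. Of those 20, 6 were called (median -0.30), and of the 15 longer members 5 (median -0.25). The part of cell makeup and transcript length in the falls was not tested.

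Some members are counted beside other genes. Exonic bases of 15 members are shared with another annotated gene, most in Ndufb6 (39% of its exonic length, with Smim27), Ndufa13 (30%, with Tssk6) and Ndufb9 (19.5%, with Gm49356). Ndufa12, Ndufab1, Ndufb4, Ndufs3 and Ndufs5 have near-identical processed pseudogenes. Whether the counting used strand is not given in the sources used here, so their values are less certain than those of Ndufa1, Ndufv3 and Ndufv1, which share no exonic bases and have no such copy.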

How the data were processed

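Bulk poly(A) RNA from liver was sequenced from both ends (61 cycles per end). Per the study's methods and the submitters' processing notes, the authors aligned reads to GRCm38 with HISAT2 2.1.0 and counted them per gene with HTSeq 0.11.0, and the deposited values are raw gene counts, not normalized. Annotation release and strand setting are not given in the sources used here. The authors tested with DESeq2; none of their results was used, nor was 1 column that matched no sample.

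Samples were grouped by their titles. Genes were kept by filterByExpr (minimum count 10, minimum total 15), scaled by TMM and fitted in a one-way model over 6 groups and 21 libraries with edgeR 4.0.16 in R 4.3.3. Each comparison used the two-sided quasi-likelihood F-test with Benjamini-Hochberg adjustment over 14370 genes, and a gene was called when its adjusted p was under 0.05. Symbols, transcript lengths and exon overlaps came from GENCODE M21. Promoter windows came from RefSeq, for 32 of 35 members.

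Alternatives were DESeq2 1.42.0, limma 3.58.1 (voom with sample quality weights), RLE, upper quartile and library total scaling, no filter, only the groups compared, a replicate block, transcript length and GC offsets, and leaving out each library. The members, the pathway and marker lists (hepatocyte, Kupffer, leukocyte, endothelial, stellate, cholangiocyte, adipocyte, muscle, erythroid and pancreas) and the rules were chosen with earlier results of these data known. Library values are given by rule for the listed core subunits, the 4 largest called falls between the noCys groups and up to 4 called differences with the smallest adjusted p. The NRF1 and YY1 matches printed were chosen after values were seen.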

Additional observations from a re-analysis of the deposited data

Results flagged for a closer look

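A library stood far from the others of its group in 2 of 39 checks of a member, the members' sum or the core share in groups of 4 or 5 libraries, where chance alone flags about 1 group in 20. Both were KO noTrp replicate 2, with Ndufs7 at 236 CPM against 180.4 to 189 in the other 4 libraries, and a summed level of the members of 6159 CPM against 4848 to 5166.

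Cysteine removal differed between the genotypes, by the test of the difference itself, for 10 members. The difference of log2 fold changes, KO minus WT, was -1.40 for Ndufb2, -1.11 for Ndufa3, -1.04 for Ndufa1, -0.80 for Ndufb8, -0.80 for Ndufb5, -0.78 for Ndufv3, -0.63 for Ndufs6, -0.62 for Ndufc1, -0.51 for Ndufa9 and -0.49 for Ndufs5. None of the 6 core subunits was among them: 1 had an unadjusted p under 0.05 in edgeR, limma-voom called 1 and DESeq2 called 0.

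The genotype effect differed between the noCys and noTrp diets for Ndufa3 (-0.95), Ndufa1 (-0.85) and Ndufv3 (-0.65). Both tests use the KO noCys and WT noCys libraries, so they are not separate evidence.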

How the results depend on the processing

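No called member changed direction under any alternative in 4 comparisons checked for this (KO noCys against WT noCys, KO CTR and KO noTrp, and cysteine removal in KO minus WT), but members that were not called did, namely 7, 3, 6 and 7 of them in that order. With library totals 6 uncalled members turned from lower to higher in KO noCys against WT noCys (Ndufa7, Ndufa8, Ndufa10, Ndufb7, Ndufc2 and Ndufs4), and the median of the 6 core subunits in KO noCys against KO CTR went from -0.09 to 0.03. Medians of all members near 0, in KO noTrp against WT noTrp and in WT noCys and WT noTrp against WT CTR, also changed sign under some alternatives. The count of called members moved by over 1.5 times in 34 cases and by less in 159. The cause was not tested. DESeq2 called 14 for KO noCys against KO noTrp (8.52% of all genes called lower). It called 4 for KO noTrp against KO CTR (2.22%). By limma-voom there were 18 for KO noCys against WT noCys (17.7%) and 15 for KO noCys against KO noTrp (10.2%). It also called 17 for cysteine removal in KO minus WT (7.85%) and 5 for KO noTrp against KO CTR (2.28%). With library totals there were 16 for KO noCys against KO CTR (5.9%) and 6 for cysteine removal in KO minus WT (2.25%). There was 1 for the genotype effect in noCys minus noTrp (1.62%) and 0 for KO noTrp against KO CTR (0.765%). The GC offset gave 2 (1.13%) and the fit of only the groups compared gave 0 (0.751%) for KO noTrp against KO CTR. Without single libraries, counts ranged from 7 to 14 for KO noCys against WT noCys (7.6% to 12.9% of all genes called lower). For KO noCys against KO CTR they were 10 to 27 (4.61% to 10.1%). They were 1 to 11 for KO noCys against KO noTrp (1.89% to 7.1%) and 4 to 11 for cysteine removal in KO minus WT (1.62% to 5.09%). The genotype effect in noCys minus noTrp gave 1 to 4 (1.42% to 4.05%), and KO noTrp against KO CTR gave 0 to 4 (0.525% to 1.74%). For WT noTrp against WT CTR the count was 0 without any one WT CTR library. Leaving out a WT noTrp library leaves 1 in that group, so those fits are not counted in these ranges. With both doubtful libraries (WT CTR replicate 3 and KO noCys replicate 3) left out, an alternative chosen after seeing the data, counts were 7, 10, 1, 4 and 0 for the first 5 of those comparisons. The shares of all genes called lower were then 7.48%, 4.52%, 1.85%, 1.28% and 1.32% in that order.

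Correlations of deviations between same-numbered libraries ran from -0.355 to 0.353 over 41 pairs, and 9 pairs were over 0.1. These included both pairs between WT noTrp and KO noTrp and 5 of the 6 pairs among the replicate 1 libraries of the noCys and noTrp groups (0.144 to 0.353). In none of the 9 pairs of groups that share 3 or more numbers was every correlation over 0.1, so the numbers were not taken to pair the libraries. The replicate block gave 11 calls for KO noCys against WT noCys, where 11.5% of all genes were called lower. It gave 19 for KO noCys against KO CTR (8.09%) and 6 for KO noCys against KO noTrp (4.54%). Cysteine removal in KO minus WT had 7 (2.99%), the genotype effect in noCys minus noTrp 2 (2.17%) and KO noTrp against KO CTR 0 (0.863%).

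Groups of 2 to 5 libraries limit what could be called, and the median standard error of a member between the noCys groups was 0.12 on the log2 scale.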
